A study of Mus musculus with 4 samples.

Results

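At day 4 a small set of gastruloid cells had transcripts of Pou5f1 and of Utf1 or L1td1, and none of Zfp42 or Dppa3. The combination was meant to pick primed rather than naive pluripotent cells, but some of the cells held other naive genes, as described below. The cells were chosen by their own UMI counts. A UMI, or unique molecular identifier, tags 1 captured RNA molecule. A member had at least 2 UMIs of Pou5f1, at least 3 UMIs of Utf1 and L1td1 together, 0 UMIs of Zfp42 and of Dppa3, and fewer than 3 UMIs of T, in a cell with 2000 or more UMIs and less than 20% of them from mitochondrial genes. This rule kept 67 of 7202 day 4 cells, a share of 0.930% with an exact Clopper-Pearson 95% interval of 0.722% to 1.18%. The day 4 library held 7324 barcodes and the series 31330.

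Gastruloids are aggregates of embryonic stem cells that elongate and form germ layers without extraembryonic tissue. They were made from Zx1, a wild type mouse embryonic stem cell line, which was aggregated in N2B27 medium and given a pulse of the Wnt agonist CHIR99021. From day 4, the day of the cells described here, the medium also held bFGF, VEGF and ascorbic acid, which favour heart formation. Further libraries were made on days 5, 6 and 11. Each library pooled several gastruloids of this single line, and there was 1 library per day, so no test between days or cell sets was possible. All values come from the 3′ UMI counts of these libraries. Intervals are at 95% and cover counting error only, not the spread between cells, gastruloids or cultures.

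The epiblast is the pluripotent tissue of the embryo from which the germ layers arise. On leaving the naive state it silences Zfp42 (Rex1), Dppa3 (Stella) and the Klf factors, keeps Pou5f1 (Oct4), and gains the de novo DNA methyltransferase Dnmt3b, the growth factor Fgf5 and the transcription factors Otx2 and Pou3f1 (Oct6). At gastrulation epiblast cells switch on T (Brachyury), lose E-cadherin and pass through the primitive streak to become mesoderm or definitive endoderm.

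The successive limits of the rule show how narrow the set was. Of the 7202 cells, 1631 had at least 2 UMIs of Pou5f1, 726 of these also had at least 3 UMIs of Utf1 and L1td1, 170 of these lacked Zfp42 and Dppa3, and 67 had fewer than 3 UMIs of T. The limit on naive genes alone turned away 362 cells, here called Zfp42 or Dppa3 positive cells, and the limit on T alone turned away 103 cells, here called T positive cells. Both sets passed every other limit and are the nearest neighbours of the members. Their comparison with the members is given beside that with all other 7135 cells of day 4, to which both belong. The comparisons share the 67 members and are therefore set side by side only.

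Values on either side of each limit differed by varying amounts. The 5 members with exactly 2 UMIs of Pou5f1 had 16.0 CPM of Pim2, against 0 CPM in the 7 cells with 1 UMI of Pou5f1 that passed the other limits. CPM is the summed UMIs of a gene per 1000000 summed UMIs of the same cells. The 12 members with 3 UMIs of Utf1 plus L1td1 had 80.8 CPM of Pim2, and the 35 cells with 2 such UMIs had 16.8. The 50 cells that missed the rule by a single UMI of Zfp42 or Dppa3 had 168.8 CPM of Pim2 and 376 CPM of Dnmt3b, close to the 196 and 440 CPM of the members. The 14 members with T at 2 UMIs had 96.8 CPM of Pim2 and 199 of Dnmt3b, and the 7 cells just outside, with T at 3, had 140 and 208. The 312 cells with at least 2 UMIs of Zfp42 and Dppa3 together had 42.0 CPM of Pim2 and 213 of Dnmt3b.

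The members carried markers of primed epiblast outside the rule. Members and gene lists were chosen with earlier results of these data known, so the levels describe the cells and are not independent support. Pim2, a serine/threonine kinase, reached 196 CPM (178 to 215) in members and 11.8 CPM in all other cells, 16.6 times as much (14.97 to 18.3). It was also higher than in Zfp42 or Dppa3 positive cells, at 60.2 CPM, and than in T positive cells, at 130 CPM. Single members held from 0 to 28 UMIs of Pim2, with a median of 4, and 53 of 67 held at least 1. With each cell thinned at random to 10000 UMIs, 62.1% of the 66 members deep enough had a Pim2 UMI, compared with 30.1% of the Zfp42 or Dppa3 positive cells and 52.9% of the T positive cells. In 2142 Hand1 high cells, mesoderm-type cells with at least 10 UMIs of Hand1 that should lack the gene, the thinned share was 2.47%. Before thinning the median depth was 30153 UMIs in members and 36422.5 in Hand1 high cells, and 79.1% of members had a Pim2 UMI.

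The octamer, ATGCAAAT, is the binding sequence of POU factors such as the product of Pou5f1. RefSeq promoter windows of build GRCm38.p6, with 250 bases before and 50 after the transcription start, were searched for it on both strands, and also for its first 7 letters, ATGCAAA, and for the SOX core CATTGT. Every octamer contains the shorter form. The upstream 250 bases of 3 genes are printed 5′ to 3′ along the gene with matches in capitals. Pim2 is the non-rule gene with the highest ratio among those at 100 CPM or more. Chchd10 is second among the leading genes outside the lists, and Nanog is a core pluripotency gene. All 3 hold a motif and were chosen after values were seen, so they are not an unselected sample. Bst2, the first of the 20 leading genes, is not printed. Of the 20, 16 had a promoter among those searched, and only Chchd10 held an octamer. Pim2 lies at chrX:7878056-7878305, plus strand, Chchd10 at chr10:75932880-75933129, plus strand, and Nanog at chr6:122707239-122707488, plus strand.
Pim2: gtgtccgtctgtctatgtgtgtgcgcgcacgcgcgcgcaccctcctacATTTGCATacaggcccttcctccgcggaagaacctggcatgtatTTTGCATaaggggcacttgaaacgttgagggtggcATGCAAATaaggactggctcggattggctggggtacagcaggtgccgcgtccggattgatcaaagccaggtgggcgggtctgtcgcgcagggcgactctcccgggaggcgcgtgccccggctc
Chchd10: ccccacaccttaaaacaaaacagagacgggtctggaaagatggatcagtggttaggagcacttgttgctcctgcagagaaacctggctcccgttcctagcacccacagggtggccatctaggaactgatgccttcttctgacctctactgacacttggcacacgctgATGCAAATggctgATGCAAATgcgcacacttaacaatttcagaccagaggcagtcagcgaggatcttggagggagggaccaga
Nanog: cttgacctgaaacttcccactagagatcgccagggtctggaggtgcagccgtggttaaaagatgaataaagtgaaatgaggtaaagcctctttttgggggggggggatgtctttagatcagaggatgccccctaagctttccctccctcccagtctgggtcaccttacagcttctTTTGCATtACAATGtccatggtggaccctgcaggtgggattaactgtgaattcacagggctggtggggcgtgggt

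The Pim2 window held 2 octamers, beginning 202 bases upstream of the start on the opposite strand and 123 bases upstream on the strand of the gene, and a further 7-letter form 158 bases upstream. The Chchd10 window held 2 octamers on the strand of the gene, 83 and 70 bases upstream. The Nanog window held the 7-letter form 75 bases upstream and the SOX core 67 bases upstream, 1 base apart and on the opposite strand. Of 32851 RefSeq promoters, 1.74% held an octamer, 0.107% held at least 2, 4.63% held the 7-letter form and 12.6% the SOX core. A gene is counted as past 2-fold when the ratio of CPM plus 10 is at least 2 or at most 0.5, which is a size and not a test. Against all other cells 108 of 7772 genes at 10 CPM or more in either set were higher by this measure, a background of 1.39%, and 112 were lower, 1.44%. The members were chosen within this contrast, so nothing is read from the counts. Of the 108 genes 87 had a promoter among those searched, and 3 of the 87 held an octamer, Chchd10, Pim2 and Pipox. Of the 112 genes 78 had a promoter among those searched, and 5 held an octamer, Aldh1a2, Asb4, Cdx2, Hs3st3b1 and Zfp42, the last lower by the rule itself. Over all genes compared, 6239 had such a promoter, and 1.39% of these genes held an octamer. The octamer was thus seen in both directions. None of the 3 motifs was in the windows of Dnmt3b, Fgf5, Otx2, Utf1 or L1td1. Pou3f1, Gdf3, Dppa5a and Zic2 had no entry.

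**Figure D1:**
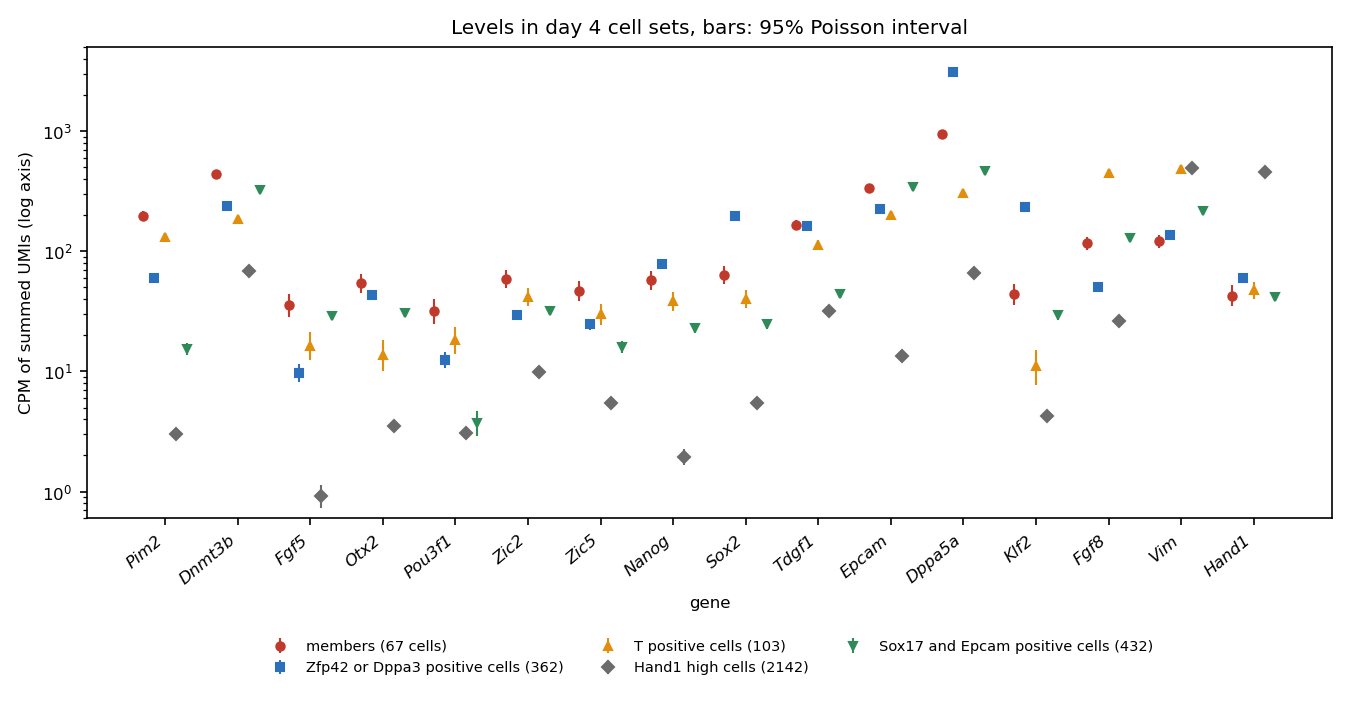
Levels of 16 genes that did not choose the members, in 5 sets of day 4 cells, as CPM of summed UMIs on a log axis. Points are values of a set and bars exact Poisson 95% intervals; Hand1 chose the Hand1 high cells and Epcam, with Sox17, the green set. Pim2 (196 CPM) and Dnmt3b (440 CPM) were higher in members than in the other sets drawn, and Dppa5a and Sox2 were higher in Zfp42 or Dppa3 positive cells.

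Dnmt3b, which sets new DNA methylation, stood at 440 CPM (413 to 468) in members, 236 CPM in Zfp42 or Dppa3 positive cells, 184 CPM in T positive cells and 103 CPM in all other cells. Members held from 0 to 61 UMIs of it with a median of 12, and 65 of 67 held at least 1. The ratio to all other cells was 4.27 (4.00 to 4.55). In 432 cells with at least 3 UMIs each of Sox17 and Epcam, an endoderm-type combination, Dnmt3b was at 325 CPM and Pim2 at 15.3 CPM. The ratio of members to T positive cells was 2.40 for Dnmt3b against 1.504 for Pim2. Among 13 genes of DNA methylation, 11 reached 10 CPM in members or in all other cells, and Dnmt3b was the 1 gene at least 2-fold higher. The maintenance enzyme Dnmt1 had 94.3 CPM in members and 116 CPM in all other cells, Uhrf1, its partner, 102 and 102, and the oxidase Tet1 76.0 and 57.6.

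Fgf5, Otx2 and Pou3f1 were all higher in members than in all other cells, but each was found in a minority of them. Fgf5 stood at 35.4 CPM (28.1 to 44.0) against 4.38, with 25 of 67 members positive, a median of 0 and 1 cell that held 22 of the 81 UMIs. Otx2 stood at 54.1 CPM (45.04 to 64.6) against 10.5, with 33 members positive and at most 11 UMIs. Pou3f1 stood at 31.9 CPM (24.99 to 40.1) against 5.03, with 26 members positive and at most 12 UMIs. Relative to the Zfp42 or Dppa3 positive cells, Fgf5 was 3.63 times as high (2.73 to 4.81) and Pou3f1 2.54 times (1.91 to 3.36), while Otx2 was 1.25 times (1.02 to 1.51). Relative to the T positive cells the order was different, with Otx2 3.95 times as high (2.80 to 5.67), Fgf5 2.16 times and Pou3f1 1.76 times (1.23 to 2.51). Fgf5 was also present at 29.1 CPM in the Sox17 and Epcam positive cells, where Pou3f1 was at 3.69 CPM.

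Of 22 genes in a list of primed and formative epiblast, 18 reached 10 CPM in members or in all other cells. In the primed list 8 genes were higher, namely Fgf5, Otx2, Pou3f1, Dnmt3b, Pim2, the zinc-finger factors Zic2 and Zic5 and the growth factor binding protein Igfbp2, and Lef1, a transcription factor of the Wnt pathway, was lower. The median log2 ratio was 0.79, beside -0.05 over all genes compared, and 0.70 over all 22 genes without the minimum, since 5 genes had reached it only in members. Over all genes compared 1.39% were higher and 1.44% lower. Zic2 was at 58.5 CPM against 16.1, Zic5 at 46.7 against 9.22 and Igfbp2 at 177 against 71.4, with 51, 47 and 56 members positive. Zic2 and Zic5 were therefore found in more members than Fgf5, Otx2 or Pou3f1. Sox3 had 9.61 CPM, Etv4 13.1 and Etv5 40.6 in members. Against the nearest sets fewer genes of the list differed. Against Zfp42 or Dppa3 positive cells 19 were compared, and only Fgf5 and Pim2 were higher, with a median log2 ratio of 0.30. Over all genes of that comparison 0.131% were higher. Against T positive cells 18 were compared, Otx2 and Dnmt3b were higher and Sox3 was lower, with a median of 0.34. Over all genes there, 0.26% were higher and 0.819% lower.

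Joint detection was examined for Fgf5, Otx2, Pou3f1, Zic2, Zic5 and Nodal. With all UMIs, 8 members held all 6 genes, 2 held none, and 30 held at least 4. At 10000 UMIs per cell, 28.8% of members (18.3% to 41.3%) held at least 3 of the 6, compared with 12.8% (9.54% to 16.7%) of Zfp42 or Dppa3 positive cells, 10.8% (5.51% to 18.5%) of T positive cells, 8.6% of Sox17 and Epcam positive cells and 0.327% of Hand1 high cells. The 6 genes were chosen after their values had been seen, and the cells come from 1 library, so these shares are a description only.

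Of 15 core pluripotency genes, all reached 10 CPM, 7 were higher in members than in all other cells and none was lower. Over all genes compared, 1.39% were higher and 1.44% lower. Pou5f1 (391 against 63.7 CPM), Utf1 (134 against 20.2) and L1td1 (204 against 28.3) chose the members and account for 3 of the 7. The limit was on the sum of Utf1 and L1td1, and 20 members held no Utf1 UMI. These 20 had 106 CPM of Pim2 and 72.4 of Sox17, and the other 47 had 232 and 4.92. Without the 3 rule genes the median log2 ratio of the remaining 12 genes was 0.41. The 4 higher among these were Nanog, Sox2, the Nodal co-receptor Tdgf1 (Cripto) and the ligand Gdf3. As 4 of the 12 genes reached 10 CPM only in members, this count is partly set by the minimum. Of the 8 that reached it in both sets 2 were higher. Nanog stood at 57.2 CPM (47.8 to 67.9) against 9.68 and was found in 49 members, and Tdgf1 at 165 CPM against 57.9, in 55 members. Sox2 stood at 63.8 CPM (53.8 to 74.97) against 23.96, in 37 members. The RNA-binding factor Lin28a, 120 against 98.9 CPM, the zinc-finger factor Sall4, 111 against 103, and Trim71, 127 against 118, were near equal in the members and all other cells. Against Zfp42 or Dppa3 positive cells none of the 15 was higher, and 4 were lower, Sox2, Dppa4, Dppa2 and Mybl2, with Sox2 at 197 CPM in those cells. Over all genes of that comparison 1.11% were lower. Against T positive cells 2 of the 15 were higher, Gdf3 and the rule gene Utf1, and none was lower.

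Many naive genes outside the rule were lower in members than in Zfp42 or Dppa3 positive cells, but not than in all other cells. Against all other cells 11 of 24 genes of the naive list reached 10 CPM, Dppa5a, Mkrn1 and Nodal were higher, and Zfp42 and Dppa3, by the rule, and Tbx3 were lower. Against Zfp42 or Dppa3 positive cells, 13 of the 22 genes outside the rule were at least 2-fold lower in members and none was higher. Of the 19 that reached 10 CPM, 12 did so only in the positive cells, where they are high, so this count is partly set by the minimum and by the choice of those cells. Of the 7 that reached 10 CPM in members 4 were lower, and over all 22 the median log2 ratio was -1.27. Over all 7629 genes of this comparison, 85 were lower, a background of 1.11%, and 10 were higher, 0.131%. The transcription factor Klf2 was at 43.7 CPM (35.5 to 53.1) in members and 234 in the positive cells, Klf4 at 5.68 and 23.6, Esrrb at 1.75 and 22.5, and Tfcp2l1 at 2.18 and 23.1. The threonine dehydrogenase Tdh was at 21.8 CPM and 236, and 5 members held 80.0% of its UMIs. Dppa5a, an RNA-binding protein of pluripotent cells, was at 950 CPM in members and 3069 in the positive cells, yet above the 296 CPM of all other cells; members ranged from 0 to 229 UMIs with a median of 18. Dppa5a has close copies in the genome, so its count may be incomplete. Of genes with near-equal values, Tdgf1 was at 165 and 162 CPM, Slc2a3 at 390 and 385, and Nodal, a ligand of the TGF-beta family, at 44.98 and 35.3.

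Of the 10 genes with the highest ratio to the Zfp42 or Dppa3 positive cells at 100 CPM or more, Pim2 led, followed by Fgf8, a growth factor of the streak, at 116 against 50.8 CPM. Meg3 (511 against 272 CPM) and Rian (158 against 87.0), both noncoding RNAs of the imprinted Dlk1-Dio3 region, were also among them, with Dnmt3b, the mTORC1 inhibitor Ddit4, the lactate exporter Slc16a3, the BMP target Id1, Nabp2 and Ssbp3. Only Pim2 and Fgf8 of these 10 were past 2-fold. The 10 lowest were Zfp42, Dppa3, Mylpf, Tdh, Klf2, the fatty acid binding protein Fabp3, Rbmxl2, Dppa5a, the metallothionein Mt2 and Ifitm3, from 0 CPM for the 2 rule genes to 950 CPM for Dppa5a. Among 12 genes of primordial germ cells, which also express Pou5f1 and Utf1, 8 reached 10 CPM and 5 were lower in members, including Tfap2c at 8.30 against 49.0 CPM. Against all other cells 4 were compared and only Dppa3, a rule gene, was past 2-fold. Nanos3 had 1 UMI in all members.

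Several genes of the primitive streak were lower in members than in T positive cells. Of 19 genes of the primitive streak and nascent mesoderm other than T, 16 reached 10 CPM, 8 were lower in members and none was higher. As 6 of the 16 reached 10 CPM only in the T positive cells, this count is partly set by the minimum. Of the 10 that reached it in members 5 were lower, and over all 19 the median log2 ratio was -0.76. Over all 7696 genes compared, 63 were lower, a background of 0.819%, and 20 were higher, 0.26%. Fgf8 stood at 116 CPM in members and 446 in T positive cells, the caudal homeobox factor Cdx2 at 17.9 and 135, and the Nodal inhibitor Lefty1 at 5.68 and 101. Rspo3, which amplifies Wnt signals, was at 34.9 and 241 CPM, the activin antagonist Fst at 62.9 and 302, and the mesenchymal filament gene Vim at 121 and 479. In the Wnt pathway list 19 genes reached 10 CPM, of which 5 were lower, Wnt5a, Rspo3, Fzd10, Sp5 and Sp8, and none was higher.

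Members exceeded T positive cells by 2-fold or more in Dnmt3b (2.40 times, 2.17 to 2.65), Otx2, Gdf3, the rule gene Utf1 and 3 genes of the naive list, Dppa5a (3.13 times, 2.90 to 3.37), Klf2 and the ubiquitin ligase Mkrn1. Spink1, a protease inhibitor, Trh, the precursor of thyrotropin-releasing hormone, and Emb, all of the definitive endoderm list, were also higher. Against all other cells 9 of 14 genes of that list were compared, Cldn6, Trh and Spink1 were higher and none was lower, with a median log2 ratio of 0.81. Eomes, a factor of streak and endoderm, was at 40.2 CPM in members, 15.8 in T positive cells and 56.1 in all other cells. In members the 5 highest cells held 56.5% of the Eomes UMIs and 97.1% of the Spink1 UMIs, so these values rest on a few cells.

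**Figure D2:**
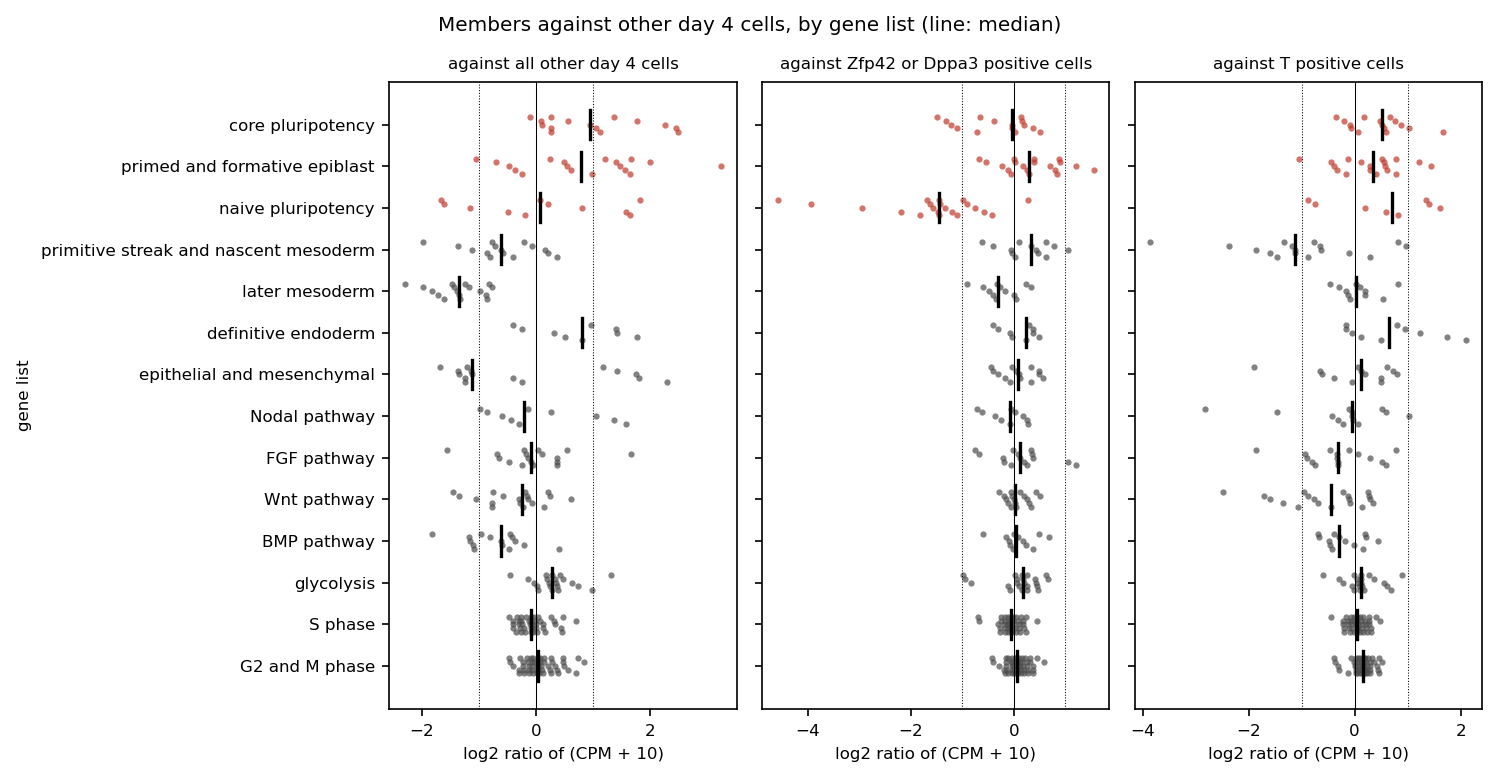
Log2 ratio of CPM plus 10 of each gene in 14 lists, members against all other day 4 cells (left), Zfp42 or Dppa3 positive cells (middle) and T positive cells (right). Each point is a gene at 10 CPM or more in either set, the short line is the list median and dotted lines mark 2-fold. Rule genes are drawn and enter the medians. The naive list lies to the left in the middle panel (median -1.45) and the streak list to the left in the right panel (median -1.12), while later mesoderm is low in the left panel (median -1.35).

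Against all other day 4 cells the members were higher in 5 of 15 genes compared in a list of epithelial and mesenchymal genes, all 5 epithelial. The epithelial genes Krt8, Krt18, Cldn4 and Esrp2 of the same list were not among the 5. E-cadherin (Cdh1) stood at 72.1 CPM against 13.5, the adhesion molecule Epcam at 338 against 60.9, the tight junction genes Cldn6 at 61.1 against 16.5 and Cldn7 at 88.2 against 19.1, and the epithelial splicing factor Esrp1 at 25.8 against 5.81. Epcam was found in 65 members, with a median of 11 and a highest value of 29 UMIs. In the same list 8 mesenchymal genes were lower, N-cadherin (Cdh2), Vim, Fn1, Zeb1, Zeb2, Snai1, Snai2 and Twist1. Of the 15 genes, 3 reached 10 CPM only in the other cells and 1 only in members, so both counts are partly set by the minimum. Over all genes of this contrast 1.39% were higher and 1.44% lower. Vim stood at 121 CPM against 409 and Zeb2 at 10.0 against 34.4. Against the Zfp42 or Dppa3 positive cells none of the 14 genes compared was past 2-fold, and against the T positive cells only Vim was, of 13.

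Genes of later mesoderm were low in members. Of 20 genes 17 reached 10 CPM, 12 were lower in members than in all other cells, and none was higher. As 8 of the 17 reached 10 CPM only in the other cells, the count is partly set by the minimum. Of the 9 that reached it in members 7 were lower, and over all 20 the median log2 ratio was -1.29. Over all genes of this contrast, within which the members were chosen, 1.44% were lower and 1.39% higher. The heart and extraembryonic mesoderm factor Hand1 was at 42.8 CPM (34.7 to 52.1) against 248, or 5.80 times lower, Hand2 at 7.86 against 60.5, Bmp4 at 9.61 against 59.0, and the receptor Kdr at 13.1 against 53.8. In the streak list 3 of 15 genes were lower, Cdx2, Snai1 and the early cardiac mesoderm factor Mesp1, which was at 34.5 CPM against 166. In the BMP list, Bmp2, Bmp4, Msx1, Msx2 and Bambi were lower and no gene was higher. The residual Hand1 and Mesp1 RNA was unevenly spread, since 16 members held a Hand1 UMI and the 5 highest held 75.5% of them.

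In the Nodal list 10 of 19 genes reached 10 CPM, and Nodal itself (44.98 against 8.56 CPM), Gdf3 and Tdgf1 were higher in members than in all other cells, with none lower. As 2 of the 10 reached 10 CPM only in members, this count is partly set by the minimum. Of the 7 that reached it in both sets 1 was higher, and over all 19 the median log2 ratio was -0.09. Over all genes of this contrast 1.39% were higher and 1.44% lower. In the FGF list 17 of 22 were compared, Fgf5 was higher and Fgf3, at 3.93 against 31.3 CPM, was lower. In the Wnt list 18 of 27 were compared, none was higher and Wnt5a, Rspo3 and Lef1 were lower. Wnt3, a ligand of the posterior epiblast, was at 21.0 CPM against 16.8. In the neural list Nes, an intermediate filament gene, and Sox2 were higher, and 12 of 16 genes, Pax6 and Sox1 among them, did not reach 10 CPM in either set. No gene of the surface ectoderm or extraembryonic lists reached 10 CPM in members or in all other cells.

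Genes of the cell cycle were near equal. None of 42 genes of S phase and none of 52 genes of G2 and M phase was past 2-fold against all other cells, Zfp42 or Dppa3 positive cells or T positive cells. Summed levels of the S phase list were 3711 CPM in members and 3940 in all other cells, and those of the G2 and M phase list 7999 and 7594. Of 21 glycolysis genes 1 was higher, the glucose transporter Slc2a3, at 390 CPM against 150. In the stress list Trp53inp1 was higher, at 47.2 CPM against 17.9, and no gene was lower.

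Outside all lists the gene with the highest ratio to all other cells was Bst2 (tetherin), a membrane protein that holds back viruses, at 206 CPM against 32.2. It was followed by Chchd10, a mitochondrial protein, at 314 against 61.9, the filopodial myosin Myo10, at 130 against 30.9, Tpd52, at 110 against 28.7, and the Polycomb gene Phc1, at 101 against 32.5. Of the 20 leading genes the first 17 were at least 2-fold higher, among them Gclm of glutathione synthesis, the metallothioneins Mt1 and Mt2, Bex1 and Bex4, Ddit4, Rbpms2 and the carbonic anhydrase Car2. Several were higher in a neighbouring set. Chchd10 stood at 434 CPM in Zfp42 or Dppa3 positive cells, Mt1 at 939 CPM there against 343 in members, and Stmn2 at 193 CPM in T positive cells against 120. The 10 lowest outside the lists were Crabp1, Pmp22, Hmga2, Igf2, Asb4, Igfbp4, Meis2, Mest, Phlda2 and Ppic, all past 2-fold. Hmga2, a chromatin protein, was at 141 CPM against 550, and had 139 CPM in Zfp42 or Dppa3 positive cells and 115 in T positive cells.

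To see whether the members formed a state of their own, all day 4 cells were clustered without the 6 rule genes. Members made up at least 50% of no cluster in any of the 4 runs. Of 14 clusters, 4 held members, with 44 of 67 (65.7%) in cluster 9, 13 in cluster 11, 9 in cluster 7 and 1 in cluster 12. Cluster 9, led by Pim2, Pou5f1, T and Fst, held 477 cells, of which 9.22% were members, and also 75 of the 103 T positive cells. Cluster 11, led by Dppa5a, Tdh and Klf2, held 282 of the 362 Zfp42 or Dppa3 positive cells, and cluster 7 was led by Spink1, Sox17 and Trh. The highest share of members in a cluster was 19.1% at resolution 1.5 and 19.7% with all list genes left out of the clustering. The members thus shared their clusters with the neighbouring sets.

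**Figure D3:**
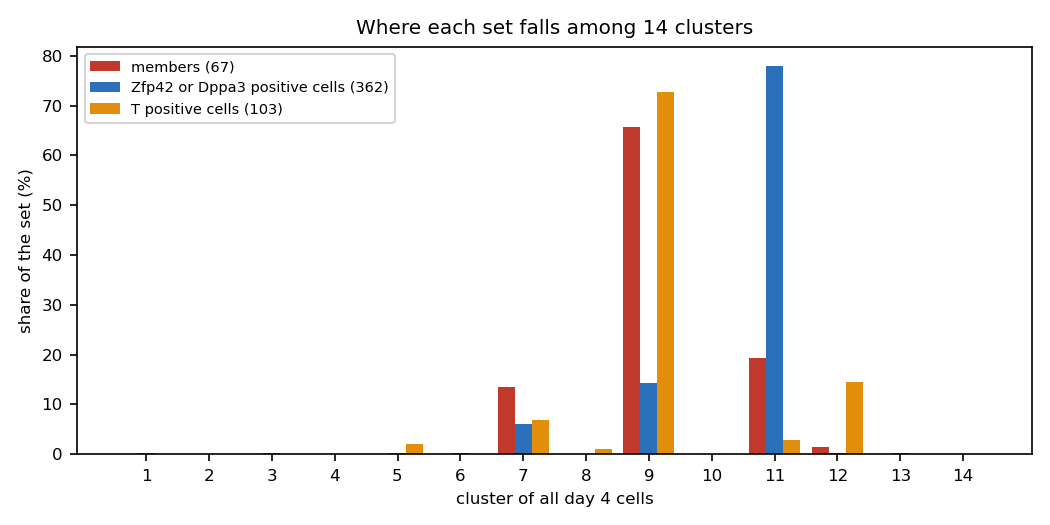
Share of the members, of the Zfp42 or Dppa3 positive cells and of the T positive cells in each of 14 clusters of all day 4 cells, in percent of each set. Members were mostly in cluster 9 (65.7%), with smaller parts in clusters 11 and 7.

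The members were not uniform. Clustering the 67 cells alone gave 3 subgroups of 37, 21 and 9 cells, which are given as a description. Subgroup 1 had the highest Pim2, at 318 CPM, with Dnmt3b at 565, Nanog at 85.8 and Pou3f1 at 54.6 CPM, and 35 of its 37 cells were in cluster 9. Subgroup 3 had Dppa5a at 3644 CPM, Klf2 at 223, Sox2 at 205 and Otx2 at 157 CPM, no Fgf8 or Hand1 UMI, and 8 of its 9 cells were in cluster 11. The Zfp42 or Dppa3 positive cells were near these values for Dppa5a, Klf2 and Sox2, at 3069, 234 and 197 CPM, and had 43.5 CPM of Otx2. Zfp42 and Dppa3 were at 0 in subgroup 3 by the rule, while its summed UMIs held other naive genes and the highest Otx2 of the 3 subgroups. These sums do not show that the same cells were high in both. The cells with the most Otx2, of 23966 and 20888 UMIs, held Dppa5a but little or no Klf2 or Sox2. Those with the most Klf2, of 21591 and 22628 UMIs, held little Otx2. The cell of 24132 UMIs, next in Otx2, held Klf2 as well. A 0 in 1 cell does not show that the RNA was absent.

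Subgroup 2, of 21 cells, was lower in epiblast genes and held RNA of later lineages. Pim2 was at 47.4 CPM, Pou5f1 at 168.6, Pou3f1 at 4.41 and Dnmt3b at 260 CPM, while Spink1 was at 454, the keratin gene Krt18 at 289.8, Hand1 at 91.5, Mesp1 at 79.3, Sox17 at 58.4 and the endoderm factor Foxa2 at 46.3 CPM. Its median depth was 38960 UMIs, against 27640 in subgroup 1 and 22760 in subgroup 3, and 8 of its 21 cells were among the 8% of day 4 cells with the highest doublet scores, against 2 of 37 and 0 of 9. The part of doublets in these values was not tested.

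**Figure D4:**
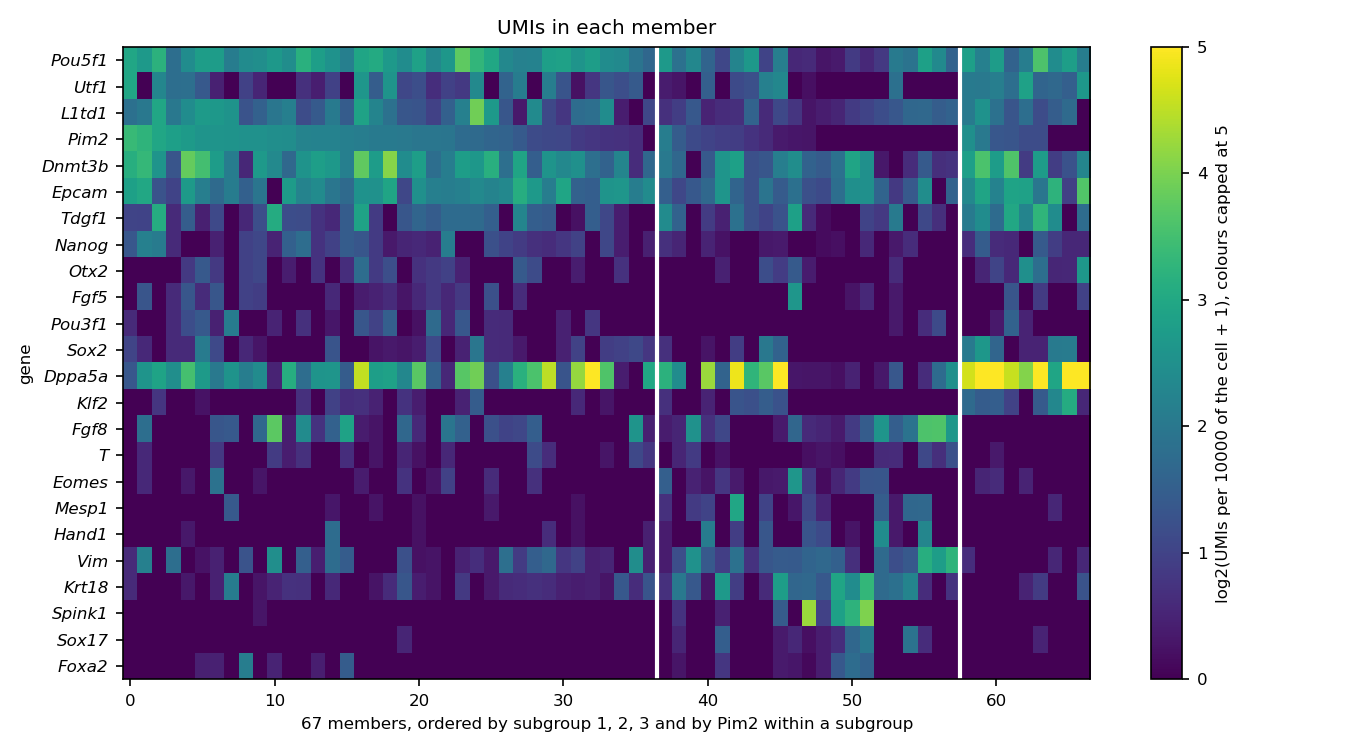
UMIs of 24 genes in each of the 67 members, as log2 of UMIs per 10000 UMIs of the cell plus 1; columns are cells, ordered by subgroup (white lines between 1, 2 and 3) and by Pim2 within a subgroup. Pim2 fades across subgroup 1 and is low in most of subgroup 2, where Krt18 and Spink1 appear, and Dppa5a is strong in subgroup 3.

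Cells with RNA of other lineages were also counted directly. At least 3 UMIs of Hand1 or Mesp1 were held by 9 members, at least 3 of Sox17 or Foxa2 by 8, and any of the 4 by 15, or 22.4%. These 15 cells had 68.0 CPM of Pim2 (50.3 to 89.9) and 2.78 of Pou3f1, and the remaining 52 had 254 (230 to 280) and 45.2. Dnmt3b was at 292 and 508 CPM, Otx2 at 19.4 and 70.1, and Epcam at 255 and 377. The 15 cells had a median of 40200 UMIs, and 7 of them were among the 8% with the highest doublet scores, against 3 of the 52. Without the 15 cells the log2 ratio to all other cells was 3.60 for Pim2 instead of 3.24. That of Hand1 was -4.16 instead of -2.29, a fall set in advance, because Hand1 was among the genes that chose the 15 cells. Spink1 turned from 1.41 to -2.13, and 9 members in all held a Spink1 UMI.

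Levels also varied with the T UMIs that the rule still allowed. In the 40 members with no T UMI, Dnmt3b was at 552 CPM (512 to 594), in the 13 with 1 UMI at 432 (374 to 497), and in the 14 with 2 UMIs at 199 (164 to 239). Otx2 was at 76.1, 39.1 and 17.6 CPM and Sox2 at 96.7, 34.8 and 14.1 in the same order. Fgf8 went the other way, at 53.9 (41.9 to 68.3), 133 (101 to 170) and 241 CPM (202 to 285). Vim was at 71.4, 104 and 243 CPM. Pim2 was alike at 0 and 1 UMI, 233 and 215 CPM, and lower at 2, 96.8. Hand1, at 30.9, 4.34 and 100 CPM, followed no order, and 4 of the 14 cells with 2 UMIs were among those with the highest doublet scores, against 6 of 40 and 0 of 13.

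After thinning to 10000 UMIs, the Fano factor (variance over mean) was computed for 2559 genes with a mean of at least 0.5 UMI over 66 members. Its median was 1.13, near the value of 1 that pure counting would give, and 180 genes (7.03%) exceeded 2. The highest belonged to the nuclear RNA Malat1 (31.2), Dppa5a (19.5), Spink1 (14.4), the ferritin gene Fth1 (12.2) and the peroxidase Gpx4 (11.6), followed by Ftl1-ps1, Ifitm1, S100a11, Rhox5, Ptma, Hsp90aa1, Phlda2, Fgf8, Slc2a3 and Ndufa4l2. Ftl1-ps1 is a near-identical copy of a ferritin gene, so its count is uncertain. Dppa5a ranged from 0 to 65 UMIs at this depth with a median of 4, and the 5 highest cells held 36.2% of them. Pim2, Dnmt3b and Epcam had Fano factors of 2.88, 3.84 and 2.12.

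Across the 66 thinned members, which share a library and differ in RNA content, Spearman's rho was 0.48 for Pim2 with Dnmt3b, 0.44 for Pim2 with Nanog, and -0.49 for Dnmt3b with Vim. Hand1 and Mesp1 had a rho of 0.53. The summed primed list without rule genes, 2 to 33 UMIs per cell with a median of 12, had a rho of -0.43 with the later mesoderm list, -0.30 with the streak list, 0.31 with the naive list and 0.06 with the endoderm list. These are descriptions of sparse counts and were not tested.

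The same rule was then applied to the later libraries, which it had not been written on. On day 5 it kept 32 of 7408 cells, or 0.432% (0.296% to 0.609%). On day 6 it kept 1 of 5850, and on day 11 none of 8730, where the exact interval reached up to 0.0422%. After thinning to 10000 UMIs the shares were 1.44% (1.18% to 1.75%), 0.555% (0.395% to 0.758%), 0.0709% and 0%, in the order of the days. Day 11 cells were shallower, with a median of 12082 UMIs against 25335 at day 4, and 3041 of them were too shallow for thinning. Zfp42 or Dppa3 positive cells were found at 362, 304, 25 and 1 cells on these days, so there were 5.40 of them for each rule cell at day 4 and 9.5 at day 5. T positive cells numbered 103, 8, 1 and 0.

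**Figure D5:**
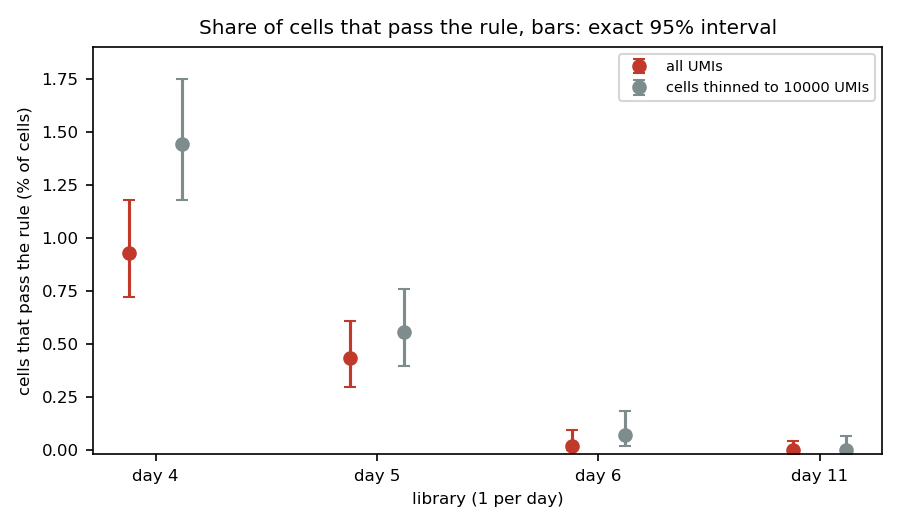
Share of cells that pass the rule in the library of each day, in percent, from all UMIs (red) and after thinning each cell to 10000 UMIs (grey). Bars are exact 95% intervals; with all UMIs the day 4 share was 0.930%, that of day 5 was 0.432%, and no day 11 cell passed.

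The 32 day 5 cells were not used to write the rule, and genes outside it were compared there again. Relative to other day 5 cells, Pim2 was 8.83 times as high (5.72 to 13.1), Otx2 18.2 times (10.5 to 29.4), Tdgf1 7.10 times (5.86 to 8.53), Epcam 3.40 times (3.07 to 3.77) and Dnmt3b 2.48 times (1.91 to 3.17). Otx2 rested on 18 UMIs in 6 of the 32 cells. Relative to the 304 Zfp42 or Dppa3 positive cells of day 5, Pim2 was 2.67 times as high (1.67 to 4.13), Otx2 1.64 times (0.941 to 2.70), Dnmt3b 1.29 times (0.978 to 1.67), Epcam 1.16 times (1.04 to 1.295) and Tdgf1 0.508 times (0.419 to 0.610). Tdgf1 was thus higher in the naive-gene positive cells of that day. The intervals for Otx2 and Dnmt3b include 1, and none of these intervals covers the spread between cells. Levels in the rule cells were lower than at day 4 for Pim2, at 21.9 against 196 CPM, and for Dnmt3b, at 53.8 against 440, and day and library cannot be told apart. Epcam, at 317 CPM, was near its day 4 value of 338. Fgf5 was at 0.841 CPM (0.0213 to 4.69) at day 5, from 1 UMI, against 35.4 CPM (28.1 to 44.0) at day 4, with a median depth of 30469.5 UMIs in the 32 cells. Hand1 was at 61.4 CPM against 214 in other day 5 cells and Vim at 251 against 1294. In the Zfp42 or Dppa3 positive cells of that day they were at 32.9 and 260 CPM. Of the endoderm list, Krt18 was at 570 CPM in the rule cells, 349 in other day 5 cells and 222 in the positive cells. Spink1 was at 256.5, 117 and 95.7 CPM in the same order, with 7 of 32 rule cells positive. Krt8, at 371, 484 and 196 CPM, and Sox17, at 15.1, 16.3 and 9.60, were not above other day 5 cells. Over all 7972 genes at 10 CPM or more at day 5, 39.7% had a ratio of CPM plus 10 above 1 and 60.3% below it, 1.87% were at least 2-fold higher in the rule cells and 1.29% at least 2-fold lower. Of the 20 leading genes outside the lists, all 20 had a ratio of CPM plus 10 above 1 at day 5, 8 of them at least 2-fold, and of the 10 lowest, 9 were below 1 and 8 at least 2-fold lower. The exception was Phlda2.

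The members held 6083 to 135740 UMIs with a median of 30153, against 25295 in all other cells and 33442 in Zfp42 or Dppa3 positive cells, and a median of 5177 genes. The median mitochondrial share was 2.21% in members and 2.31% in all other cells, and the median ribosomal protein share 35.3% and 34.4%. None of the members had a barcode that another library also held, of 36 such barcodes in the day 4 library. Among members 14.9% were in the 8% of cells with the highest doublet scores, against 7.93% of all other cells and 19.6% of Zfp42 or Dppa3 positive cells. Leaving that 8% out kept 57 members, or 0.860% of the remaining cells.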

How the data were processed

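Single-cell RNA was measured in 4 libraries of Zx1 gastruloids, 1 per day. The authors deposited raw UMI counts per gene and called cell, without normalization. The submitters' processing notes name Cell Ranger 3.1.0 and build mm10, while the header of the day 11 matrix gives version 6.0.1. Counts were used as deposited. Cells with 2000 or more UMIs and under 20% mitochondrial UMIs entered. Members, compared cells and gene lists were chosen with earlier results of these data known. CPM is the summed UMIs of a gene per 1000000 UMIs of a set, with no gene length. The ratio of CPM plus 10 gave the size of a difference for genes at 10 CPM or more in either set. With 1 library per day no test was made. Intervals at 95% are exact Poisson for CPM, exact Clopper-Pearson for shares and conditional binomial for CPM ratios. Thinning drew 10000 UMIs per cell.

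Clusters used log-normalized counts, 2000 variable genes without the 6 rule genes, 30 principal components, 20 neighbours and Leiden at resolution 1 (leidenalg 0.10.2, Python 3.11.15, scipy 1.17.1). Doublet scores followed Scrublet's method with exact neighbours; doublets were left in and scored, and the 8% highest were left out as an alternative. The size rule and the intervals were tested on simulated data. Named genes were the rule genes, list genes, outside the lists the 20 highest and 10 lowest ratios to all other day 4 cells at 100 CPM or more in the higher set, the 10 highest and 10 lowest against either neighbouring set, and the 15 highest Fano factors, with mitochondrial and ribosomal protein genes left out of the rankings. Genes named for promoter motifs, for the joint detection of 6 genes and for the splits of members were chosen after values were seen. The alternatives were other added values, filters, scalings, depths, rule limits and cluster settings; leaving out members with RNA of other lineages and leaving neighbouring sets out of the other cells were added after seeing the data.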

Additional observations from a re-analysis of the deposited data

How the results depend on the processing

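The share of members at day 4 was 0.611% with the stricter limits of 4 UMIs of Pou5f1 and 6 of Utf1 plus L1td1, 4.25% with limits of 1 and 1, 0.555% with T at 0, and 1.44% after thinning. It stayed within its interval with doublets left out and with stricter quality limits. At day 5 the stricter limits gave 0.175%. The count of genes at least 2-fold higher than in all other cells, 108, was 323 with 1 added in place of 10, 18 with 50 added, 51 with a filter of 50 CPM, 180 with scaling outside mitochondrial and ribosomal protein genes, 172 with the stricter limits and 168 without members holding RNA of other lineages. The count lower, 112, was 277 with 1 added, 17 with 50 added, 52 with the 50 CPM filter, 188 after thinning, 226 with the stricter limits, 183 without the highest doublet scores and 204 without members holding RNA of other lineages. Against Zfp42 or Dppa3 positive cells, 95 became 252, 18 and 46 under the added values 1 and 50 and the 50 CPM filter, 149 under the other scaling and 199 after thinning. Against T positive cells, 83 became 269, 17, 38, 141 and 181 in the same order, and 138 with the stricter limits. The added values and the filter change these counts by construction; the cause of the other changes was not tested. Of 88 genes checked singly, the log2 ratio of Spink1, 1.41, turned to -2.30 with the stricter limits and to -2.13 without members holding RNA of other lineages; no other gene changed direction. No paired analysis was possible because there is 1 library per day. Depth limits Fgf5, Esrrb and other genes with few UMIs in 67 cells.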
